A study of Mus musculus with 96 samples.

Results

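The S phase and DNA replication genes described here are 35 named genes of the 23955 in a table of single-cell expression from mouse leukemia. They were chosen by name for their known part in chromosome replication. They were followed in 96 single cells, 48 from each of 2 mice, by their levels, by how they varied together, and by how many of them a cell held in each cell state. Both mice were moribund with acute myeloid leukemia and had the genotype Flt3ITD/ITD, Dnmt3afl/-, MxCre. Both copies of Flt3, which codes for a growth factor receptor of early blood cells, carried the internal tandem duplication. One copy of the DNA methyltransferase gene Dnmt3a was floxed and the other was null, with Cre driven by the interferon-inducible Mx1 promoter, which is active in blood cells and beyond; whether each cell had lost the floxed copy was not checked. Spleen cells were enriched for c-Kit (CD117), a receptor of stem and progenitor cells, with magnetic beads, caught on a microfluidic chip in 2 separate rounds, scored by eye and made into full-length cDNA libraries. All groups here share this genotype and selection, so nothing below measures an effect of either allele. The protocols also name Flt3ITD/ITD, Dnmt3afl/fl controls, which were not analysed here.

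A cell copies its DNA in S phase, between the gap phases G1 and G2. In G1 the proteins Cdc6 and Cdt1 load the ring of Mcm2 to Mcm7 onto origins of replication, and in S phase Cdc45 and the GINS complex join this ring to form the active helicase. Polymerases then copy the strands, held to DNA by the PCNA clamp, while enzymes of nucleotide synthesis feed them and new histones are placed behind the fork. Many of the genes are switched on at the entry into S phase by E2F factors, and in the blood system their transcripts are widely used to mark dividing progenitors.

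Levels are in TPM, abundance corrected for gene length and scaled to 1000000 per cell, so levels of different genes can be set side by side. Read depth is not known from TPM, so detected genes, those reaching 1 TPM in a cell, were counted instead. Their number ran from 1759 to 5559 with a median of 3606 in mouse 1 and from 1604 to 6018 with a median of 3083 in mouse 2. Each mouse is 1 animal and cells are not replicates, so no test was made, no value has a replicate check, and a difference between the mice cannot be told apart from one of capture round or of sex. States were set by thresholds of 1000 TPM, taken in order. Cells with that much H2-Aa, a class II antigen presentation gene, were called H2-Aa-high. Of the others, those with that much S100a8, a calprotectin gene of neutrophils, were S100a8-high, then those with that much Mpo, the myeloperoxidase gene of granulocyte progenitors, Mpo-high, and the remainder rest. All 10 dendritic cell markers of a list reached 10 TPM in some H2-Aa-high cell of each mouse, and their summed level had medians of 86107 and 85617 TPM. The list holds H2-Aa itself, so that marker passes by the threshold and adds to these sums. A total of 4 cells passed more than 1 threshold: cell 13 of mouse 1 and cells 68, 79 and 86 of mouse 2.

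The cells ranged from nearly empty of these genes to holding almost the whole set. A cell of mouse 1 held between 1 and 32 of the 35 members at 10 TPM or more, with a median of 9, and a cell of mouse 2 held 0 to 30, with a median of 8. Cells with 12 or more were called S-gene-rich. They were 21 of 48 cells in mouse 1 (43.8%, exact Clopper-Pearson 95% interval 29.5 to 58.8) and 19 of 48 in mouse 2 (39.6%, 25.8 to 54.7); these intervals cover the counting of cells only. In mouse 1 the lowest of them held 12 members (2 cells) and the highest of the other cells 9 (4 cells), so no cell lay between. In mouse 2 the lowest held 12 (1 cell) and the highest of the others 11 (3 cells), with no gap. With a limit of 18 members in place of 12, mouse 1 had 13 such cells and mouse 2 had 13. In the S-gene-rich cells below 1000 TPM of H2-Aa the summed dendritic cell markers had medians of 45.5 and 127 TPM. These sums also hold H2-Aa, which is low there by the choice of cells.

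The number of members followed the state of the cell. The 14 H2-Aa-high cells of mouse 1 held 1 to 16 members with a median of 3, and the 20 of mouse 2 held 0 to 13 with a median of 2. The exceptions were cell 11 of mouse 1 with 16 members and cell 65 of mouse 2 with 13, the only S-gene-rich cells among the 34 H2-Aa-high cells of both mice. Mpo-high cells held 4 to 32 (median 17, 13 cells) in mouse 1 and 6 to 28 (median 15, 12 cells) in mouse 2. The rest held 2 to 27 (median 9, 20 cells) in mouse 1 and 4 to 30 (median 18, 6 cells) in mouse 2. The 10 S100a8-high cells of mouse 2 held 1 to 27 members with a median of 17. The S-gene-rich cells were 10 of 13 Mpo-high and 9 of 20 rest cells in mouse 1, and 7 of 10 S100a8-high, 7 of 12 Mpo-high and 4 of 6 rest cells in mouse 2. The only S100a8-high cell of mouse 1, cell 13, held 24 members and also had Mpo at 34099 TPM and Elane, neutrophil elastase, at 51242 TPM.

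**Figure D1:**
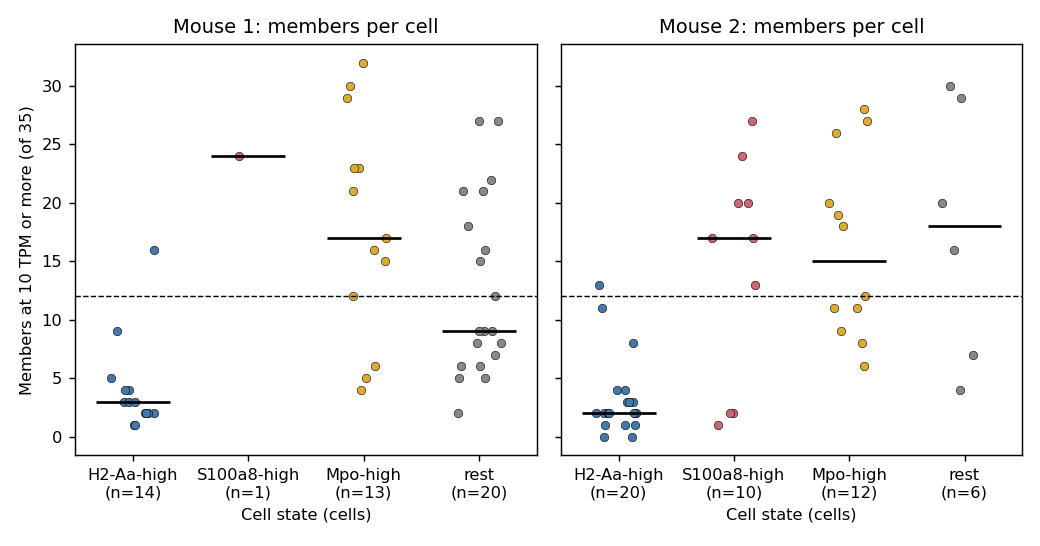
Number of the 35 members at 10 TPM or more in each cell (y axis, points are cells) by cell state (x axis) in each mouse; black bars are medians and the dashed line is 12 members. H2-Aa-high cells sit at medians of 3 and 2, and S100a8-high cells of mouse 2 at a median of 17 with 3 cells at 1 or 2.

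Member numbers also went with the number of genes detected in a cell. Over the 48 cells of a mouse, which share a mouse, a capture round and a spread of depths, Spearman's correlation between the 2 numbers was 0.71 in mouse 1 and 0.83 in mouse 2. H2-Aa-high cells had fewer detected genes, with medians of 2922 and 2581, than Mpo-high cells, with 4463 and 4041. Among cells with 2000 to 3500 detected genes, a range chosen after the data were seen, 11 H2-Aa-high cells of mouse 1 held a median of 3 members and none was S-gene-rich. In that range the 7 rest cells of mouse 1 held a median of 9 and 3 were S-gene-rich. In mouse 2 the 18 H2-Aa-high cells of that range held a median of 2 and 0 were S-gene-rich, and the 5 S100a8-high cells held a median of 17, of which 3 were S-gene-rich. The 1 Mpo-high cell of mouse 2 in that range held 11 members, and its 2 rest cells held 4 and 7, so none of these 3 was S-gene-rich.

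**Figure D2:**
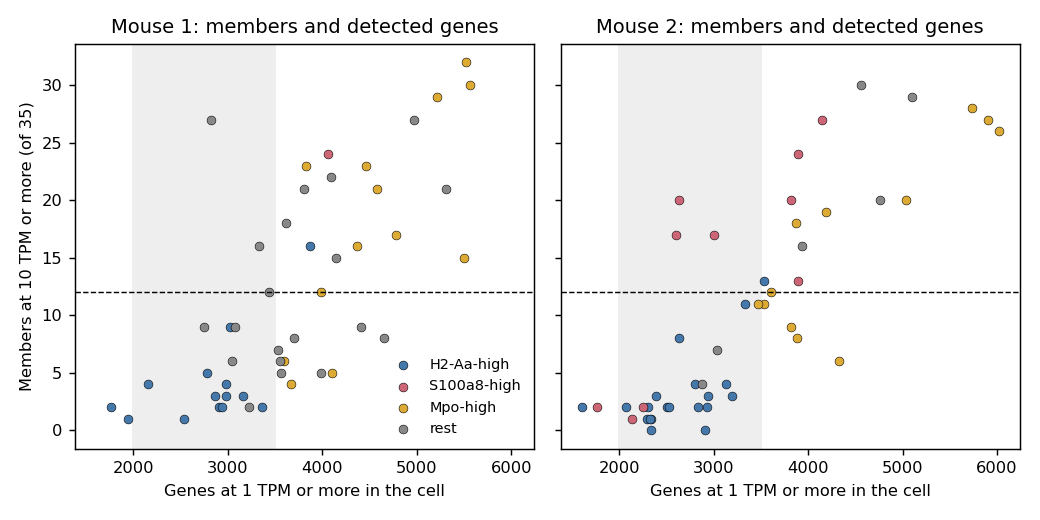
Members at 10 TPM or more (y axis, of 35) against genes at 1 TPM or more (x axis) for each cell, by mouse and state; the grey band is 2000 to 3500 genes and the dashed line is 12 members. Inside the band, S100a8-high cells of mouse 2 reach 20 members where H2-Aa-high cells reach 11.

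Gene by gene, H2-Aa-high cells had less of every member on average than the other cells of the same mouse. The difference of mean log2(TPM + 1) was negative for 35 of 35 members in both mice, though Ccne1 in mouse 2 differed by less than 0.01. Its median was -2.27 in mouse 1, and 29 members (82.9%) were lower by 1 or more, against 33.9% of the 11015 genes whose mean reached 1 TPM. In mouse 2 the median was -2.55 with 32 members (91.4%) lower by 1 or more, against 30.3% of all genes. Over all 11015 genes the medians were -0.55 and -0.48, and 8303 genes in mouse 1 and 8177 in mouse 2 were lower at all. With detected-gene number removed by a linear fit the members' medians were -0.40 and -0.87, with 10 (28.6%) and 13 members (37.1%) lower by 1 or more. With the same removal, 10.4% and 7.14% of all genes were lower by 1 or more, and the medians over all genes were -0.08 and -0.01.

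Members differed in how far they were missing from H2-Aa-high cells. Gins2, a subunit of the GINS complex (chromosome 8, 120578633 to 120589304), had 0 of 14 H2-Aa-high cells at 10 TPM in mouse 1 and 1 of 20 in mouse 2. Rrm2, the small subunit of ribonucleotide reductase (chromosome 12, 24708241 to 24714146), had 1 of 14 and 0 of 20. Tk1, thymidine kinase (chromosome 11, 117815526 to 117826092), had 1 of 14, the cell at 512 TPM, and 0 of 20. A count of 0 allows a share of up to 21.4% of 14 cells and 15% of 20. Pcna, the sliding clamp (chromosome 2, 132249162 to 132253314), still had 6 of 14 and 6 of 20 cells at 10 TPM, and its median in H2-Aa-high cells was 4.57 TPM for mouse 1 and 1.005 TPM for mouse 2. Tyms, thymidylate synthase (chromosome 5, 30058202 to 30073617), reached 10 TPM in 9 of 14 and 14 of 20 H2-Aa-high cells, with medians of 13.5 and 13.1 TPM. It differed from the other cells by -0.08 in mouse 1 and -1.39 in mouse 2 on the log2 scale. In the other states, leaving out the state with 1 cell, its medians ran from 14.6 to 85.9 TPM, and its highest value in a cell was 435 TPM. A processed copy named Tyms-ps is annotated in the genome, as are Pcna-ps1 and Pcna-ps2, so reads of these genes may be shared with copies.

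The S100a8-high cells of mouse 2 were split between cells rich in members and cells nearly without them. Cells 49, 50, 79, 86, 90, 92 and 95 held 20, 13, 27, 20, 17, 24 and 17 members, and cells 72, 73 and 84 held 1, 2 and 2. S100a8 was at 26570 to 162250 TPM (median 130693) in the 7 S-gene-rich cells and at 157968 to 201252 TPM (median 170366) in the 3 others. A list of 8 late neutrophil genes (S100a8, S100a9, Ngp, Camp, Ltf, Lcn2, Mmp8, Retnlg) took 3.56% to 52.1% of all TPM in the S-gene-rich cells and 40.8% to 51.6% in the others. Since TPM adds to a fixed total, these genes take room from all others in such cells, and how far this lowers the members was not tested. Detected genes numbered 2601 to 4148 and 1768 to 2257. The groups overlapped in late neutrophil share and in S100a8, and did not overlap in detected genes. Cell 73 also held dendritic cell markers, with a summed level of 9823 TPM where the median of the 10 cells was 16.8 TPM, Xcr1 at 112 TPM and H2-Aa at 115 TPM, and its Ngp was at 1257 TPM against 128912 and 146071 TPM in cells 72 and 84. Without it, cells 72 and 84 had late neutrophil shares of 51.6% and 51.3% and 2142 and 1768 detected genes.

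Members were present at high levels beside the late neutrophil genes. In the order of cells 49, 50, 79, 86, 90, 92 and 95, Rrm2 stood at 1417, 696, 981, 197, 859, 2209 and 275 TPM. In cells 72, 73 and 84 it was at 0.24, 0 and 0.31 TPM. The 2209 TPM of cell 92 were the highest Rrm2 value of mouse 2. Lig1, the ligase that seals Okazaki fragments, was at 264, 28.9, 43.2, 162, 306, 196 and 1.61 TPM in the same 7 cells and at 0 in the other 3. Mki67, a proliferation marker outside the members, reached 10 TPM in 6 of the 7 and in 1 of the 3. Kit reached 10 TPM in 2 of the 7 (cells 50 and 86) and in none of the 3. Cells 79 and 86 were also past the Mpo threshold, at 15088 and 20561 TPM.

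Set against the H2-Aa-high cells of mouse 2, a comparison added after the data were seen, the S100a8-high cells had a higher mean of 34 members. The same held for 5118 of all 11015 genes. The median difference was 2.30 on the log2(TPM + 1) scale, and 28 members (80%) were higher by 1 or more, against 18.2% of all genes. That median was 1.75 with detected-gene number removed and 1.55 without the cells past more than 1 state threshold. The largest differences were those of Rrm2 at 6.48, Tk1 at 4.97 and Mcm7 at 4.36. Against the 6 rest cells of mouse 2 the median was -1.06 with 19 members (54.3%) lower by 1 or more, beside 36.1% of all genes, while others were higher, led by Rrm2 (2.10), Mcm5 (1.79) and Cdc45 (1.68). With detected-gene number removed that median turned to 0.50.

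Mpo-high and rest cells did not keep 1 order in both mice. In mouse 1 the Mpo-high cells had the higher mean of 33 members, beside 6669 of all 11015 genes. The median difference was 1.15, and 19 members (54.3%) were higher by 1 or more beside 21.8% of all genes. Rfc4 (2.71), Chaf1a (2.16) and Rrm2 (2.05) differed most. That median was 0.08 with detected-gene number removed, and -0.01 when the state thresholds were set at 500 TPM. In mouse 2 the median was -0.59 and 14 members (40%) were lower by 1 or more beside 15.5% of all genes, with differences from -3.14 for Pcna to 2.47 for Mcm7. Only 6 rest cells entered that value.

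**Figure D3:**
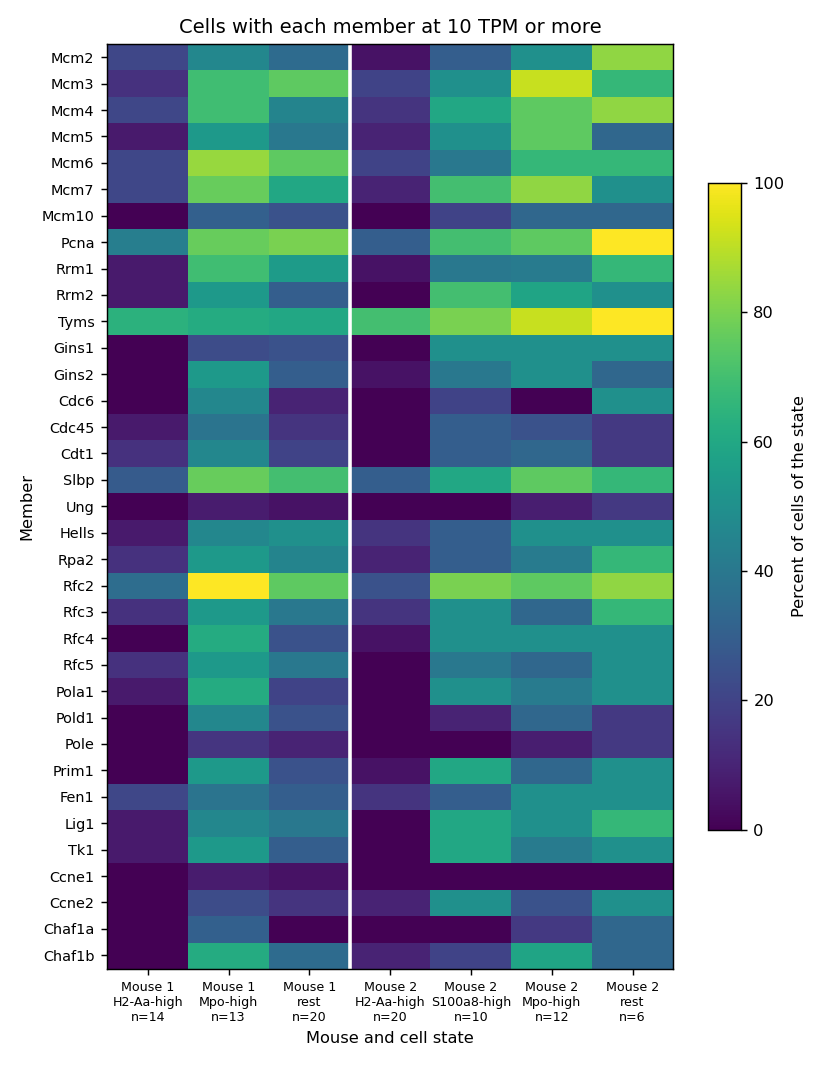
Share of cells with each member at 10 TPM or more (colour, percent) for each mouse and state (columns, with the number of cells) and each of the 35 members (rows); the 1 S100a8-high cell of mouse 1 is left out. The H2-Aa-high columns are dark for nearly all members except Tyms, Pcna, Slbp and Rfc2.

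The levels are given next in the order of the replication machinery. The 6 members of the MCM helicase, Mcm2 to Mcm7, had mean levels from 70.5 to 205 TPM in mouse 1 and from 77.7 to 153 TPM in mouse 2. Mcm6 (chromosome 1, 128331590 to 128359664) ran from 0 to 1059 TPM with a median of 109 TPM in mouse 1, and from 0 to 1141 TPM with a median of 5.58 TPM in mouse 2. Mcm4 (chromosome 16, 15623897 to 15637400) had medians of 2.55 and 3.05 TPM and highest values of 921 and 760 TPM. Mcm5 (chromosome 8, 75109569 to 75128439) reached 10 TPM in 15 of 20 cells that were S-gene-rich by the other 34 members and in 2 of 28 other cells of mouse 1, and in 13 of 18 and 5 of 30 in mouse 2. In all such counts by member, a cell is S-gene-rich by the other 34 members, and the group sizes differ by member for that reason. Mcm2 reached it in 15 of 21 rich and 2 of 27 other cells of mouse 1, and in 10 of 18 and 5 of 30 of mouse 2. Mcm3 was also common outside the rich cells, in 17 of 20 against 10 of 28 and in 16 of 18 against 8 of 30. Mcm6 was in 17 of 19 against 13 of 29 and in 12 of 18 against 8 of 30, and Mcm7 in 17 of 20 against 9 of 28 and in 17 of 18 against 5 of 30. The number of members in a cell goes with its detected genes, so these counts describe the cells and are no test. Mcm7 lies across Cops6 and Ap4m1 on the opposite strand, and whether the counting used strand is not given in the sources used here, so its reads are uncertain.

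The factors that load and fire origins were scarce by TPM. Their means ran from 11.8 to 66.96 TPM in mouse 1 and from 10.4 to 56.2 TPM in mouse 2, and they were found in 9 to 14 and 5 to 14 cells at 10 TPM or more. Cdc6, the loader, averaged 17.8 and 10.4 TPM over all 48 cells of a mouse and reached 10 TPM in 9 and 5 cells. Cdt1, its partner, was found in 12 and 8 cells. Cdc45 was found in 10 and 7 cells with highest values of 752 and 495 TPM. Gins2 reached 10 TPM in 14 of 21 S-gene-rich and 0 of 27 other cells of mouse 1, a count that allows up to 11.1%. In mouse 2 it reached this level in 11 of 19 and 2 of 29. Gins1 was found in 9 and 14 cells, and Mcm10, which helps to open the helicase, in 9 and 8. Both cyclins E, partners of Cdk2 at the start of S phase, were rare: Ccne1 reached 10 TPM in 2 cells of mouse 1 and 0 of 48 cells in mouse 2, a count that allows up to 6.25%, and Ccne2 in 7 and 13 cells. In mouse 1 the cells with either cyclin at 10 TPM or more were all S-gene-rich by the other 34 members. In mouse 2 Ccne2 was in 9 of 19 S-gene-rich and 4 of 29 other cells.

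The clamp gene Pcna was the member with the highest mean TPM in both mice, which did not hold in the RPKM values described below. It had a mean of 396 TPM (0 to 1444, median 184) in mouse 1 and 283 TPM (0 to 2051, median 72.5) in mouse 2. Rfc2, a clamp loader subunit (chromosome 5, 134581366 to 134601805), had 329.5 TPM (0 to 1210, median 246) and 189 TPM (0 to 1045, median 28.5). The other subunits Rfc3, Rfc4 and Rfc5 were lower, at 80.7, 99.2 and 76.4 TPM in mouse 1 and 75.6, 80.7 and 25.2 TPM in mouse 2. Pcna and Rfc2 were also common outside S-gene-rich cells. Pcna reached 10 TPM in 14 of 28 and Rfc2 in 16 of 29 cells of mouse 1 that were not rich by the other 34 members, and both were in 11 of 30 of mouse 2. Rfc4 instead reached it in 12 of 20 rich and 2 of 28 other cells of mouse 1 and in 14 of 19 and 1 of 29 of mouse 2. The subunits that work in 1 complex were thus not detected in the same number of cells. Rfc2, Rfc4 and Rfc5 each overlap a gene on the opposite strand (Lat2, Eif4a2 and Wsb2). Among other members, Gins2, Cdc45, Fen1, Lig1, Ccne2, Chaf1a and Pole also overlap an annotated gene on the opposite strand. Cdt1 overlaps Gm20388 on the same strand.

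Polymerases stood at the low end. Pole, the catalytic subunit of polymerase epsilon, reached 10 TPM in 4 and 2 cells, and Pold1, that of polymerase delta, in 12 and 6. Pola1, that of polymerase alpha, reached 10 TPM in 13 cells of each mouse and had means over all 48 cells of 20.0 and 18.6 TPM. Its partner, the primase subunit Prim1 (chromosome 10, 128015168 to 128030037), had means of 68.9 and 49.02 TPM and was at 10 TPM in 13 of 21 S-gene-rich and 0 of 27 other cells of mouse 1, and in 13 of 19 and 1 of 29 of mouse 2. Rpa2, a subunit of the single-strand binding protein RPA (chromosome 4, 132768332 to 132778752), had means of 125 and 225 TPM, but the second rests on 1 cell. Cell 68 of mouse 2, which passed both the H2-Aa and the Mpo threshold, held Rpa2 at 9154 TPM, 99.7% of all its member TPM; without it, a setting chosen after the data were seen, the mean of the other 47 cells was 34.6 TPM and the highest value 309 TPM.

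In nucleotide supply, Rrm2 and Tk1 rarely reached 10 TPM outside S-gene-rich cells. Rrm2 had a mean of 327 TPM in the S-gene-rich and 1.63 TPM in the other cells of mouse 1, and of 569 and 2.03 TPM in mouse 2. It reached 10 TPM in 14 of 21 against 1 of 27 and in 16 of 19 against 1 of 29 cells. Tk1 reached it in 13 of 21 against 1 of 27 and in 14 of 19 against 0 of 29 cells. Rrm1, the large reductase subunit, was in 17 of 19 against 5 of 29 and in 12 of 19 against 2 of 29. Tyms, as in the states, was spread more evenly, at 14 of 21 against 16 of 27 and 17 of 18 against 22 of 30. For Tyms the difference lay more in the level, with means of 66.8 and 24.2 TPM in mouse 1 and 89.1 and 20.8 TPM in mouse 2. Tk1 overlaps Afmid on the opposite strand.

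The remaining members join fragments, repair bases and supply chromatin. Lig1 was in 13 of 20 against 2 of 28 cells in mouse 1 and in 15 of 19 against 1 of 29 in mouse 2. Fen1, the flap nuclease, was in 10 of 21 against 4 of 27 and in 12 of 19 against 3 of 29. Ung, which removes uracil from DNA, reached 10 TPM in 2 cells of each mouse. Slbp, the histone mRNA binding protein (chromosome 5, 33634952 to 33652574), was common, with means of 190.5 and 92.96 TPM and 29 and 25 cells. Hells, a chromatin remodeler, was found in 18 and 15 cells. The CAF-1 subunits, which place histones on new DNA, differed in number: Chaf1b in 16 and 13 cells and Chaf1a in 4 and 4.

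Between the mice the members shifted about as all genes did. The median difference, mouse 2 minus mouse 1 on the log2(TPM + 1) scale, was -0.18 over the members and -0.20 over all 11015 genes. Of the members 27 were lower and 8 higher, and of all genes 7422 were lower and 3593 higher. None of the 35 was higher by 1 or more, beside 1.59% of all genes. The 6 members (17.1%) lower by 1 or more, beside 11.6% of all genes, were Mcm6 (-1.45), Rfc2 (-1.45), Pcna (-1.27), Slbp (-1.23), Rpa2 (-1.07) and Rfc5 (-1.06). The direction was not stable: the median was 0.36 when centred on 2051 widely detected genes, which themselves moved by -0.54, and 0.32 within cells below 1000 TPM of H2-Aa and S100a8. In the second setting 5 members were higher and 1 lower by 1 or more, and the shares of all genes in that setting are not given here.

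Members varied together across the cells of each mouse. Spearman's correlation of pairs, with the number of detected genes removed by a linear fit on ranks, had a mean of 0.23 over 595 pairs in mouse 1 and 0.20 in mouse 2, against 0.00 and 0.01 over pairs of the 4058 genes that 10 or more cells of each mouse held at 10 TPM. Of the 595 pairs, 557 were positive in mouse 1, 511 in mouse 2 and 486 in both. The share of positive pairs among the 4058 genes is not given here, so only the means have a background. The points are 48 cells of 1 mouse that share a capture round, and the values are descriptions. Among only the 34 and 28 cells below 1000 TPM of H2-Aa the means were 0.24 and 0.19, so the pattern was also present without the H2-Aa-high cells. Without removal of detected-gene number they were 0.34 and 0.39 over all cells, beside 0.05 and 0.10 for all genes.

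The pair with the highest correlation by its lower mouse was Rrm2 and Tk1, at 0.77 and 0.69. Of the roles with more than 1 pair, nucleotide supply had the highest mean in both mice (0.50 and 0.49 over 6 pairs), followed in mouse 1 by the MCM helicase at 0.36 (0.25 in mouse 2), whose 15 pairs were positive in both mice. Chromatin and histone supply had 0.11 and 0.10, and the clamp with its loader 0.14 and 0.15. Pairs within a role averaged 0.25 and 0.24, and pairs from different roles 0.23 and 0.19. Sharing a role thus went with little difference in the mean correlation of a pair. Against the mean of the other 34 members, the highest lower-of-the-mice values were those of Rrm1 (0.64 and 0.61), Rrm2 (0.56 and 0.66) and Lig1 (0.68 and 0.55), and the lowest was that of Chaf1a (0.06 and 0.04), which was found in few cells.

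Transcripts of S phase and of G2 and M phase overlapped in many cells and were separate in others. A cell was called rich in G2 and M genes with 12 or more of 34 such genes at 10 TPM. Both kinds of richness fell together in 10 cells of mouse 1 and 9 of mouse 2. S genes alone were rich in 11 and 10 cells, G2 and M genes alone in 2 and 1, and neither in 25 and 28. Spearman's correlation between the 2 counts was 0.66 and 0.76, and 0.37 and 0.54 with detected-gene number removed. In the H2-Aa-high cells, 1 cell of mouse 1 (cell 11) was rich in both, 1 other cell of mouse 1 in G2 and M genes only, and 1 cell of mouse 2 (cell 65) in S genes only.

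**Figure D4:**
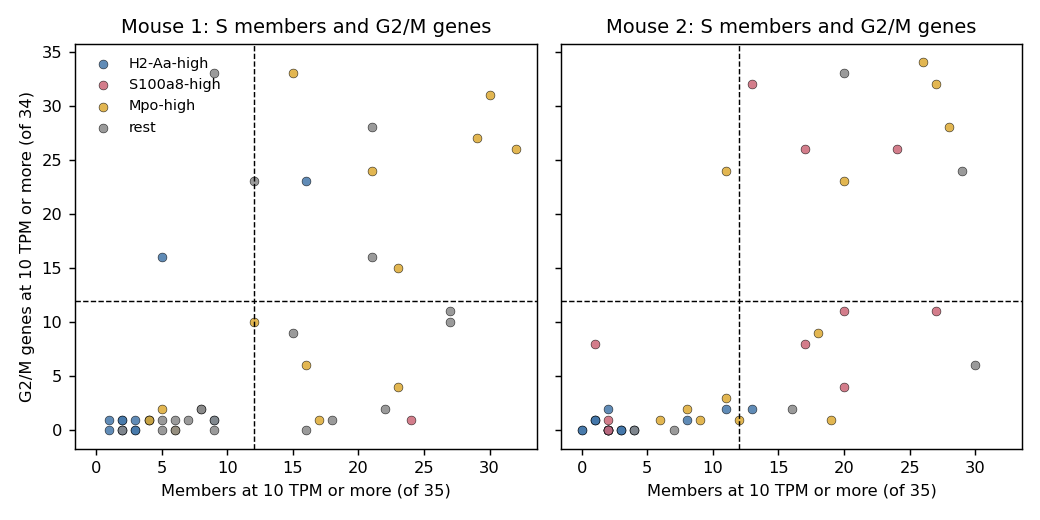
G2 and M phase genes at 10 TPM or more (y axis, of 34) against S phase members at 10 TPM or more (x axis, of 35) in each cell, by mouse and state; dashed lines are 12 genes. The lower right holds the 11 and 10 cells rich in S phase members only, and the upper left 2 and 1 cells.

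Within the S-gene-rich cells, a part of the members was higher where G2 and M genes were present. This comparison, S-gene-rich cells with 12 or more G2 and M genes minus those without, was added after the data were seen; its groups were 10 and 11 cells in mouse 1 and 9 and 10 in mouse 2. Members higher by 1 or more numbered 12 (34.3%) in mouse 1, beside 20.8% of all genes, and 15 (42.9%) in mouse 2, beside 27.4%. Those lower by 1 or more numbered 5 (14.3%) in mouse 1, near the 10.0% of all genes, and 6 (17.1%) in mouse 2, beside 6.44%. The median difference was 0.17 over the members and 0.13 over all genes in mouse 1. In mouse 2 it was 0.62 and 0.34. The cells with G2 and M genes also had more detected genes, with medians of 4898 against 4086 and 5037 against 3845, and the part of this in the differences was not tested. There were 10 members higher by 1 or more in both mice: Cdc45, Rrm2, Tk1, Rfc4, Pola1, Lig1, Gins1, Rfc5, Rrm1 and Pole. The share of all genes higher by 1 or more in both mice is not given here, so this count has no background. Cdc45 was at 10 TPM in 7 of 10 cells with and 3 of 11 without G2 and M genes in mouse 1, and in 6 of 9 and 1 of 10 in mouse 2. Tk1 was in 8 of 10 and 5 of 11, and in 9 of 9 and 5 of 10. Lig1 was in 9 of 10 and 5 of 11, and in 9 of 9 and 6 of 10.

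The licensing helicase genes did not move this way. Mcm2 differed by -0.46 and -0.84 and Mcm6 by -1.52 and -0.38, and Mcm3, Mcm4, Mcm5 and Mcm7 had opposite signs in the mice. Mcm4 had a mean of 183 TPM with and 262 TPM without G2 and M genes in mouse 1 and of 73.6 and 321 TPM in mouse 2. Of 35 members, 15 were higher and 9 lower in both mice, and the matching counts over all genes are not given here. Chaf1b was the only member lower by 1 or more in both, at -1.14 and -2.01. Over all 48 cells, with detected-gene number removed, the correlation of Mcm4 was 0.50 and 0.49 with the other members and 0.00 and 0.14 with the G2 and M genes, and that of Rrm2 was 0.56 and 0.66 with the other members and 0.57 and 0.70 with the G2 and M genes.

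**Figure D5:**
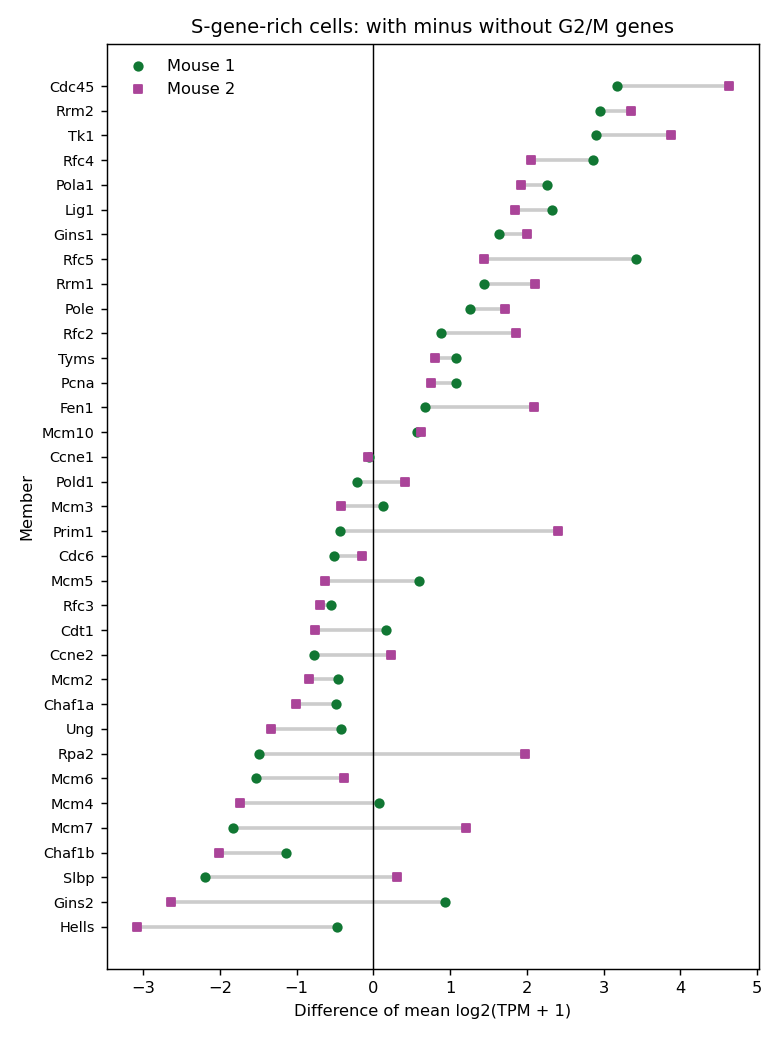
Difference of mean log2(TPM + 1) between S-gene-rich cells with and without 12 or more G2 and M genes (x axis) for each of the 35 members (y axis), circles for mouse 1 (10 and 11 cells) and squares for mouse 2 (9 and 10 cells). Cdc45, Rrm2 and Tk1 lie at 3.17, 2.95 and 2.91 in mouse 1, where Rfc5 is highest at 3.42, and at 4.63, 3.36 and 3.88 in mouse 2, and Chaf1b lies below -1 in both.

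Most of 55 other genes of replication, a list that holds no member, were also higher in S-gene-rich cells. Between S-gene-rich and other cells below 1000 TPM of H2-Aa (20 and 14 cells in mouse 1, 18 and 10 in mouse 2), 41 of 55 (74.5%) were higher by 1 or more in mouse 1 and 45 (81.8%) in mouse 2, beside 20.8% and 28.2% of all genes. Their medians were 1.98 and 2.00, against 0.23 and 0.41 over all genes. The S-gene-rich cells also had more detected genes, at a median of 4252 (3578.5 in the others) for mouse 1 and 4043.5 (3253) for mouse 2. Of 7 granulocyte-monocyte progenitor markers, 7 and 5 were higher by 1 or more (medians 2.36 and 1.46), and of 12 housekeeping genes 3 and 6 were (medians 0.33 and 1.16). The part of these in the result was not tested. Gmnn, the inhibitor of Cdt1, had means of 270 and 31.7 TPM in S-gene-rich and other cells of mouse 1. In mouse 2 it had 208 TPM in S-gene-rich cells and was listed at 0 in the 10 others. Tipin, of the fork protection complex, had 457 and 56.7 TPM in mouse 1 and 259 and 161 TPM in mouse 2. Uhrf1, which brings Dnmt1 to new DNA, was at 10 TPM in 16 of 20 against 4 of 14 and in 15 of 18 against 2 of 10 cells. Mki67 was in 13 of 20 against 1 of 14 and in 13 of 18 against 3 of 10.

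Of 37 listed regulators of the step from G1 to S, 33 passed the mean of 1 TPM. In S-gene-rich cells of mouse 1, 14 of the 33 (42.4%) were higher by 1 or more, beside 20.8% of all genes. Another 4 (12.1%) were lower by 1 or more, beside 7.78% of all genes, and the median was 0.71. In mouse 2, 16 (48.5%) were higher by 1 or more, beside 28.2% of all genes, and 0 were lower by as much, beside 4.92%. There 31 of the 33 were higher at all, beside 7561 of 11015 genes, and their median was 1.00. Tfdp1, the binding partner of E2F factors, was higher by 4.36 and 2.68. E2f1 itself reached 10 TPM in 4 of 20 and 3 of 18 S-gene-rich cells and in none of the 14 and 10 others. Cdk4, the kinase of D cyclins, had means of 521 and 390 TPM in S-gene-rich and other cells of mouse 1 and of 468 and 394 TPM in mouse 2. Cdk6 (-2.79), Mycn (-2.51) and the inhibitor gene Cdkn1b (-2.13) were lower in S-gene-rich cells of mouse 1 but not of mouse 2, where they differed by 1.00, 0.79 and 0.15. Ccnd1, cyclin D1, went with the H2-Aa-high cells, where it differed by 3.91 and 3.41, while Ccnd2 differed there by -4.43 and -3.10.

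Kit is the gene of the selected receptor. Below 1000 TPM of H2-Aa it reached 10 TPM in 14 of 20 S-gene-rich and 11 of 14 other cells of mouse 1 and in 8 of 18 and 4 of 10 of mouse 2. Its means were 113 TPM in S-gene-rich and 209 TPM in other cells of mouse 1 (medians 53.6 and 156) and 72.96 and 140 TPM in those of mouse 2 (medians 5.64 and 5.10). Cd34, a progenitor surface gene, was in 18 of 20 and 14 of 14, and in 11 of 18 and 5 of 10.

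Of the 4058 widely found genes outside the members, those most like the mean of the members in both mice were, in order, Uhrf1 (0.70 and 0.55), Atad2, Cdca7, Stmn1, Hmgb2, Dnmt1, Mbnl3, Dut, Hmgn2, Esco2, 2810417H13Rik, Tfdp1, Tipin, Pbk and Hist1h2ao (0.46 and 0.44). The measure is Spearman's correlation over the 48 cells of a mouse with detected-gene number removed, ranked by the lower mouse. Its median over all 4058 genes was -0.10. Of the 15, 6 belonged to the list of other replication genes (Uhrf1, Atad2, Cdca7, Dnmt1, Dut and Tipin) and 1, Tfdp1, to the G1 to S regulators.

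The sequences before the start sites of members were searched because the members vary together and E2F sites are known at such genes. RefSeq windows of 250 bases before the start (build GRCm38.p6) were at hand for 29 of the 35. The E2F-type motifs TTTCCCGC, TTTGGCGC, TTTCGCGC and TTTGCCGC, on either strand, stood in 7 of these 29 windows (24.1%), beside 1.91% of 27025 genes and 1 of 30 G2 and M genes (3.33%). They stood in 9 of 28 windows of G1 to S regulators (32.1%) and in 7 of 44 of other replication genes (15.9%). The motifs each hold a CG dinucleotide, and the median window held 17 of them in members and 6 in all genes; their part in the count was not tested. The matched stretches follow, 5′ to 3′ on the gene's strand, 60 bases each, with matches in capitals.
Mcm5: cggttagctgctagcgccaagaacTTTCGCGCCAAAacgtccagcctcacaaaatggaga
Mcm6: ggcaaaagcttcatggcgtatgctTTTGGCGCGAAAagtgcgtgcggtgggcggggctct
Mcm7: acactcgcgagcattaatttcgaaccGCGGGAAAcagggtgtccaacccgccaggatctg
Cdc6: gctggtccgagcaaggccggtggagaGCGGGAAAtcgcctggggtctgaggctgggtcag
Pola1: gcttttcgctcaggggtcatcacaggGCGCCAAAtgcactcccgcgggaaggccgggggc
Hells: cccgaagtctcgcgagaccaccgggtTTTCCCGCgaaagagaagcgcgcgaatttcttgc
Rfc3: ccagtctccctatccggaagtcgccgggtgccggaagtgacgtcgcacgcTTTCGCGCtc

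The stretches lie at chr8:75109332-75109391 (plus strand), chr1:128359780-128359839 (minus strand), chr5:138172015-138172074 (minus strand), chr11:98907987-98908046 (plus strand), chrX:93632260-93632319 (minus strand), chr19:38930902-38930961 (plus strand) and chr5:151651209-151651268 (minus strand). Mcm5 and Mcm6 each carry TTTCGCGC and TTTGGCGC on opposite strands in 1 run of 12 bases where the matches overlap, beginning 153 and 149 bases before the start in Mcm5 and 110 and 106 in Mcm6. Mcm6 has a further match 47 bases before the start. Single matches begin 165 bases before the start of Mcm7, 138 of Cdc6, 138 of Pola1, 62 of Hells and 10 of Rfc3. All these distances are to RefSeq starts, and GENCODE places some starts elsewhere. The stretches of Mcm7 and Cdc6 lie inside the GENCODE genes, which start at 138172422 and 98907801. Those of Hells and Rfc3 cross the GENCODE starts at 38930915 and 151651242, with the match inside the gene. The stretches of Mcm5, Mcm6 and Pola1 lie before both starts. Rrm1, Rrm2, Tk1 and Pcna, whose values move with the other members, had windows with no match to these letters, which says nothing of the factor. The box CCAAT was in 16 of 29 member windows (55.2%), in 34.5% of all genes and in 23 of 30 G2 and M genes (76.7%), with 12 of 28 G1 to S regulators (42.9%) and 22 of 44 other replication genes (50%). The element TTTGAA was in 3 of 29 (10.3%), 16.3% and 9 of 30 (30%), with 6 of 28 G1 to S regulators (21.4%) and 5 of 44 other replication genes (11.4%).

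A second deposited table, in RPKM (reads scaled by gene length and library), held 31 of the 35 members. Most had values at or near a floor in most cells. For Mcm4, Mcm3, Rfc4 and Chaf1b it ranked the 96 cells much as TPM did, with Spearman's correlations of 0.95, 0.94, 0.90 and 0.88. For the median member the correlation was 0.49, and the lowest was 0.15 for Fen1. The order of members by level also differed. Pcna, highest by mean TPM, had mean RPKM of 0.76 in each mouse, with 8 and 6 cells above its floor and a correlation of 0.37. Mcm4 had mean RPKM of 754 and 794. Cdc45, scarce by TPM, had mean RPKM of 331 and 351, with 17 and 17 cells above its floor and a correlation of 0.67. Both tables come from the same libraries, so this compares the processing and not the cells.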

How the data were processed

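Single-cell RNA-seq of 96 c-Kit-selected spleen cells, 48 from each of 2 mice, was described by 1 value per gene and cell. The main table held TPM values that the authors deposited for 23955 gene symbols, made with RSEM per the table's name. The other table held RPKM values that the authors deposited for 9310 Ensembl genes, with a floor value shared by many cells. The tools Bowtie2, RSEM and TopHat2 and the builds mm9 and mm10 are listed per the submitters' processing notes; versions and which build served which table are not given in the sources used here. Both tables matched every column to a cell, with 0 columns left over.

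Values were used as TPM or log2(TPM + 1), a scale on which differences understate the change of low genes, and differences of 1 or more were counted over 11015 genes whose mean reached 1 TPM. Depth being unknown, genes reaching 1 TPM were counted per cell. Their number was removed by a linear fit on values or on ranks, which leaves a small part of its effect. Cells of 1 animal are not replicates, so the design gave no test. Scripts used Python 3.11.15, numpy 2.4.6, pandas 2.3.3, scipy 1.17.1 and matplotlib 3.10.9, and were checked on simulated data.

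The members, the lists, the thresholds and the comparisons were chosen with earlier results of these data known. Genes were named by this rule: all members are accounted for, ranges are given for abundant members and those whose difference goes against most, and outside the members the 15 genes most like their mean are named, with examples from the lists. Coordinates and gene types are from GENCODE M21 (GRCm38), where all 35 members are protein-coding, and promoter windows from RefSeq. In 23 of the 29 windows the bases after the start matched a GENCODE transcript in the forward sense, and in 0 in reverse. Protein sequences were not used here.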

Additional observations from a re-analysis of the deposited data

How the results depend on the processing

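Of 119 recomputed values, 83 kept their direction and were classed as the same, 32 moved further and 4 changed sign. Values classed as the same could still shift. S-gene-rich cells of mouse 2 went from 19 to 13 with a limit of 18 members. The median for H2-Aa-high minus other cells of mouse 2 went from -2.55 to -3.68 with a pseudocount of 0.1. S-gene-rich cells of mouse 1 numbered 13 with a limit of 18 members. By RPKM above its floor (11 of 31 members), where most members sit at the floor, S-gene-rich cells numbered 7 in mouse 1 and 5 in mouse 2. For mouse 2 minus mouse 1 the median was -0.34 with a pseudocount of 0.1, 0.36 after centring, 0.32 within cells below 1000 TPM of H2-Aa and S100a8, and -0.00041 in RPKM. Members higher by 1 or more then numbered 1 (pseudocount 0.1), 2 (centred) and 5 (within those cells), and members lower by 1 or more 1 (pseudocount 10), 0 (centred), 1 (within those cells) and 1 (RPKM). The shares of all genes in these settings are not given here.

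For H2-Aa-high minus other cells, mouse 1 had -3.45 and -1.14 with pseudocounts of 0.1 and 10 and -0.40 with detected-gene number removed (10 members lower by 1 or more); mouse 2 had -1.26 with a pseudocount of 10 and -0.87 with detected-gene number removed (13 members). Mpo-high minus rest in mouse 1 was 0.52 with a pseudocount of 10, 0.081 with detected-gene number removed and -0.0076 at state thresholds of 500 TPM, and in mouse 2 it was -1.30 with detected-gene number removed. S100a8-high minus rest was -0.64 with a pseudocount of 10 and 0.50 with detected-gene number removed. S100a8-high minus H2-Aa-high was 3.50 and 1.30 with pseudocounts of 0.1 and 10. The mean correlation of members in mouse 2 was 0.39 with detected-gene number kept. At 50 TPM, cells of mouse 1 rich in both lists numbered 6, and cells rich in G2 and M genes only 4 in mouse 1 and 3 in mouse 2, which had 0 at 5 TPM. By thresholds chosen after the data were seen, S-gene-rich cells among H2-Aa-high cells of mouse 2 numbered 2 at 1 TPM and 0 at 50 TPM. The cause of these shifts was not tested.

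No paired analysis was possible because each mouse is 1 animal and cell numbers pair nothing. Leave-one-out does not apply for the same reason, and the planned search of protein motifs was not run. Depth per cell is unknown, so members at 0 TPM are undetected, not absent.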
